A study of Mus musculus with 2 samples.

Results

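The genes described here are 38 chaperone and cochaperone genes of the mouse: heat shock proteins of the Hsp70, Hsp90, Hsp110 and J protein families with their cochaperones, the 8 subunits of the chaperonin CCT, 5 prefoldin subunits and Hsf1. They were taken from a list of gene names that was chosen with earlier results of these data known. All 38 had a mean count of at least 10 over both libraries, among 14379 such genes of the 54446 in the files. Messenger RNA was sequenced from C57BL/6 mouse bone marrow derived macrophages (BMDMs), which are grown in culture from marrow progenitors. The control was left untreated, and the other culture received IL-36 gamma, an interleukin-1 family cytokine that signals through its own receptor; each group had 1 library. For dose, duration, the age and sex of the mice and any pooling of animals, the sources used here give nothing.

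Chaperones bind proteins that are not yet folded or have lost their fold. Hsp70 proteins hold short hydrophobic stretches in a cycle driven by ATP, J proteins bring them clients and start the cycle, and nucleotide exchange factors such as the Hsp110 and BAG proteins end it. Hsp90 works later, on clients such as kinases and steroid receptors, with cochaperones that load, pace or release them. CCT, also called TRiC, is a double ring of 8 different subunits that folds actin and tubulin, and prefoldin is a jellyfish-shaped complex that hands these clients to it. Part of the family is made in all cells at all times. Another part is induced when the transcription factor HSF1 binds heat shock elements, which are inverted repeats of the unit GAA, in their promoters. The listed genes were therefore read in 4 groups: 11 HSF1-inducible genes, 13 constitutive genes, 8 CCT subunits and 5 prefoldin subunits, with Hsf1 by itself. The label "cytosolic" does not hold for Hspd1 and Hspe1 of the first group, whose proteins form the chaperonin of mitochondria.

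The groups were also compared in promoter sequence, where they differed in part. RefSeq promoter windows (build GRCm38.p6, from 250 bases before to 50 after a transcript start) were matched for 32 of the 38 genes, all but Hsf1, Hsp90aa1, Hsp90ab1, Hspa8, Cct4 and Pfdn1. Windows were searched for the 2-unit motifs GAANNTTC and TTCNNGAA, each its own reverse complement, and for the 3-unit motifs GAANNTTCNNGAA and TTCNNGAANNTTC, which are the reverse complements of each other and contain the 2-unit motifs. At least 1 match of 2 units stood in 9 of 10 HSF1-inducible genes, 3 of 11 constitutive genes, 3 of 7 CCT genes and 0 of 4 prefoldin genes, beside 17.0% of the 27025 genes in the table. A match of 3 units stood in 3 of the 10 HSF1-inducible genes and 1 of the 11 constitutive genes, beside 0.662% of all genes. Those inducible genes are Hspe1 and Hspd1, which share 1 stretch, and Hsph1. The 3-unit match of Hsph1 lies after the start, as do the only matches of Bag3 and Cct6a. The sites below show what such matches look like in inducible genes (Hspe1, Hspd1, Hspa1a, Dnaja1, Hsph1) and, for contrast, in constitutive genes (Dnajb6, Cdc37) and a CCT gene (Cct5). Capitals mark the matched bases, and each line is 30 bases on the strand of its gene.
Hspe1: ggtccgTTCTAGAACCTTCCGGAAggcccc
Hspd1: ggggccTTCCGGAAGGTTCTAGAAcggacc
Dnajb6: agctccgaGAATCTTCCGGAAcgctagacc
Hspa1a: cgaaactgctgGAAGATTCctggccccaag
Dnaja1: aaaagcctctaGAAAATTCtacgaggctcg
Hsph1: gggtagaatctTTCTCGAAggctcgagaag
Cdc37: tcggcgggaacTTCCAGAAggcctcaccac
Cct5: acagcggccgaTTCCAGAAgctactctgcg
The Hspe1 and Hspd1 lines are the same stretch, chr1:55088053-55088082, read on opposite strands, since the mitochondrial chaperonin genes lie head to head. The 18 matched bases begin 89 bases before the start of Hspe1 and 144 before that of Hspd1. Hspa1b has the same 30 bases as Hspa1a. A match describes letters only, and no match says only that these letters are not in the 300 bases searched.

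A longer view places these letters in their promoters. The 250 bases before the start of Hspa1a, chr17:34972157-34972406 on the minus strand, hold 1 match of 2 units, 104 bases before the start. That of Hspb1, chr5:135887669-135887918 on the plus strand, holds 2, at 117 and 97 bases before the start. The same stretch of Cct7, chr6:85451255-85451504 on the plus strand, holds none and is shown as a CCT promoter of a gene whose ratio lay above 1.
Hspa1a: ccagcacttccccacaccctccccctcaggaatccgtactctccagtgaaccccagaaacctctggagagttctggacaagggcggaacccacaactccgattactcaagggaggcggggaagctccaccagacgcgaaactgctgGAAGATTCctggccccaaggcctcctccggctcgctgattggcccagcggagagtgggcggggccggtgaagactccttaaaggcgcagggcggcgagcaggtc
Hspb1: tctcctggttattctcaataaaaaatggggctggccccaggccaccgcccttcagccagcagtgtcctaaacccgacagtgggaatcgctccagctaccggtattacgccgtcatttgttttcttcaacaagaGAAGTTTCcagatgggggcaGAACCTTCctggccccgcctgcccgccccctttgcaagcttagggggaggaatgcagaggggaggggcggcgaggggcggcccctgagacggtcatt
Cct7: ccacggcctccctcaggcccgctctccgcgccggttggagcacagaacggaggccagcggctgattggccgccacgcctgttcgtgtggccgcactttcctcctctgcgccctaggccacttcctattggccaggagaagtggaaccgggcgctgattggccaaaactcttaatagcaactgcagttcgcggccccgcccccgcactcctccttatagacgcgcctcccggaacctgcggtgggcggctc

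For each gene the ratio of scaled counts, IL-36 gamma over control, is given with its exact 95% Clopper-Pearson interval. With 1 library per group no difference has a replicate check, and the intervals cover counting error only. "Above 1" and "below 1" mean that the whole interval lies on that side. Where a sentence gives a pair of counts, the control comes first. Levels compared between genes are CPM (scaled counts relative to library size) per kilobase of exon. Exon length counts every annotated exon of a gene, so a level per kilobase depends on which exons are annotated. Counts in genes summed to 17426367 and 17267900, control first. Macrophage marker transcripts (Adgre1, Csf1r, Cd68, Itgam, Lyz2, Mertk, Fcgr1, Cd14) were abundant in both, with a summed level of 29439 CPM in the untreated library and 29333 CPM after IL-36 gamma. Most of that sum was Lyz2, at 22763 and 22462 CPM. Past 1.2-fold, Csf1r (0.809) and Mertk (0.786) were lower with IL-36 gamma, and Itgam (1.28) and Fcgr1 (1.35) were higher.

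Over the whole set, slightly higher genes outnumbered lower ones: 24 of 38 genes lay above 1, 3 lay below, and 11 had intervals that spanned 1. Of all measured genes 20.2% lay above 1 and 16.5% below. The median log2 ratio of the 38 genes was 0.15, against 0.01 over all measured genes. Together they made up 0.573% of gene counts in the untreated library and 0.607% after IL-36 gamma, a ratio of 1.10 (1.09 to 1.11) for the summed scaled counts, where the sum over all measured genes had a ratio of 1.04. No member passed a 1.2-fold difference with its whole interval, a bound that 2.61% of all genes passed upwards and 3.52% downwards. Counts from whole cultures cannot tell fewer cells of a type from less RNA per cell. Many members are abundant, and among the 9042 genes at 10 CPM or more 28.0% lay above 1 and 19.7% below, with a median log2 ratio of 0.03.

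**Figure D1:**
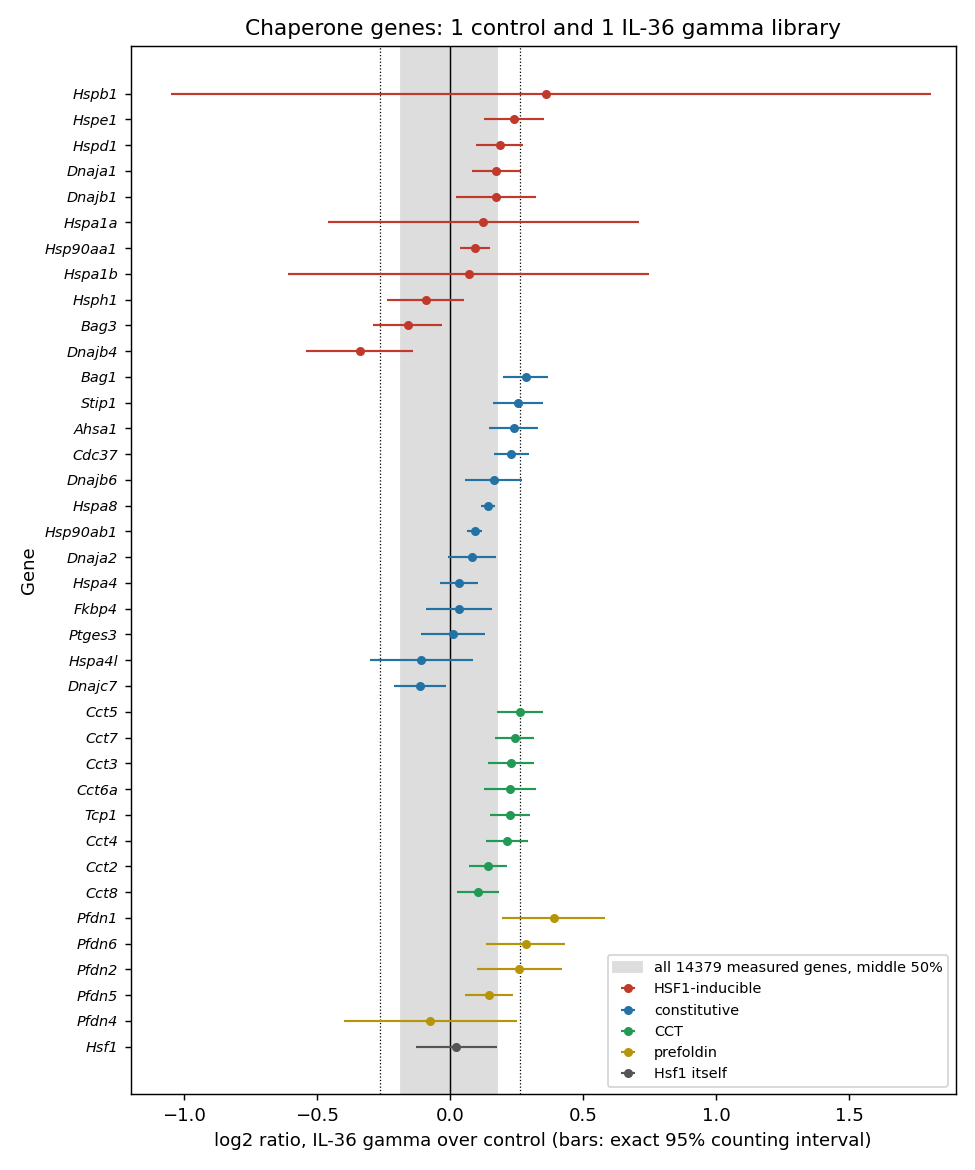
The log2 ratio of IL-36 gamma over control (x axis) is drawn for each of the 38 genes (y axis), coloured by group, with bars for the exact 95% counting interval. The grey band holds the middle 50% of all 14379 measured genes and the dotted lines mark 1.2-fold. All 8 CCT genes lie right of 0 with their bars, while the HSF1-inducible genes stand on both sides, from Dnajb4 at -0.34 to Hspb1 at 0.36, the latter with a bar from -1.05 to 1.81.

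Hsf1, the transcription factor that drives the heat shock response, went from 709 control counts to 687 with IL-36 gamma. Its ratio was 1.02 (0.914 to 1.13), so no difference was detectable at this depth. The gene spans chr15:76477422-76501913, and its level per kilobase was 5.62 CPM in the untreated library and 5.72 CPM after IL-36 gamma. Of the other heat shock factors and small heat shock genes, 5 of 8 were measured, 2 lay above 1 and 0 below. The shares of all measured genes were 20.2% above 1 and 16.5% below. Hsf4, another heat shock factor, is named here after its value was seen. It had 67 and 95 counts, a ratio of 1.49 (1.08 to 2.07). Hsf2, a related factor, had 259 and 255 counts, a ratio of 1.03 (0.866 to 1.23). Hsbp1, which encodes a small protein that binds heat shock factors, had 2534 and 2736 counts, a ratio of 1.13 (1.07 to 1.197).

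The HSF1-inducible genes stood on both sides of 1, with more above it than below. Of 11, 5 lay above 1 (Hspe1, Hspd1, Dnaja1, Dnajb1 and Hsp90aa1), 2 lay below (Dnajb4 and Bag3) and 4 spanned 1. That is 45.5% above and 18.2% below, beside 20.2% and 16.5% of all measured genes. Among genes at 10 CPM or more these shares were 28.0% and 19.7%. Their median log2 ratio was 0.13, between medians of the members' own bounds of -0.24 and 0.28, and the standard deviation between members was 0.20. In CCT that standard deviation was 0.05. Leaving out members that share over 25% of their words with other genes, a choice made after seeing the data, kept few inducible genes. Those kept were Hspe1, Dnajb1, Hsph1, Bag3 and Dnajb4, with 2 above 1 and 2 below. Their median of -0.09 is the value of Hsph1, whose interval spanned 1. Summed counts went from 13538 to 13782, a ratio of 1.07 (1.04 to 1.09), beside 1.04 over all measured genes.

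The classical stress-induced Hsp70 genes were low in both libraries, Hspa1a at percentile 17.7 of the levels per kilobase of all measured genes. Hspa1a (ENSMUSG00000091971, chr17:34969190-34972156, minus strand) went from 51 control counts to 53 with IL-36 gamma, at a ratio of 1.09 (0.728 to 1.63). Hspa1b, its neighbour at chr17:34956436-34959238, had 39 counts in each library, a ratio of 1.05 (0.656 to 1.68). Intervals this wide leave room for a difference of over 1.5-fold upwards, so a change was not detectable at this depth. Per kilobase, Hspa8, the constitutive Hsp70 gene, stood 313 times higher than Hspa1a in the untreated library and 317 times after IL-36 gamma. Hspa1a and Hspa1b are near-identical copies: 66.3% of the 50-base words of Hspa1a and 62.3% of those of Hspa1b also occur in transcripts of other genes, and reads with several alignments were not counted. For Hspa8 that share of words is 52.7%, so the levels of all 3 genes and the ratio between them are uncertain. Hspb1, the small heat shock protein also called Hsp25, had 9 and 11 counts, with an interval from 0.483 to 3.50.

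The inducible Hsp90 gene was far more abundant than the inducible Hsp70 genes. Hsp90aa1 (chr12:110690605-110702728) went from 5330 control counts to 5419 with IL-36 gamma, at a ratio of 1.07 (1.03 to 1.11). Its constitutive counterpart Hsp90ab1 had 18938 and 19242 counts, a ratio of 1.07 (1.05 to 1.09). The division between the genes was the same to 3 digits: Hsp90aa1 held 22.0% of the counts of the pair in the control (95% exact interval 21.4 to 22.5%) and 22.0% with IL-36 gamma (21.5 to 22.5%). The share itself is uncertain, since 58.5% of the words of Hsp90aa1 and 4.49% of those of Hsp90ab1 occur in other genes. Neither call held under every setting. Scaled by total counts, Hsp90aa1 had a ratio of 1.03 (0.988 to 1.07). With the trend of the ratio on expression removed, Hsp90aa1 had a ratio of 1.002 (0.964 to 1.04) and Hsp90ab1 turned to 0.971 (0.951 to 0.9903).

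The mitochondrial chaperonin genes of the inducible group lay above 1. Hspd1, which encodes the barrel subunit Hsp60, went from 1988 control counts to 2157 with IL-36 gamma, at a ratio of 1.14 (1.07 to 1.21). Hspe1, which encodes its lid Hsp10, had 1217 and 1370 counts, a ratio of 1.18 (1.09 to 1.28). Per kilobase, Hspe1 stood 1.10 times as high as Hspd1 in the untreated library and 1.14 times after IL-36 gamma. These are the genes that share the promoter stretch printed above. Without them, 3 of the remaining 9 inducible genes lay above 1. With the length trend of genes at 10 CPM or more removed, a choice made after seeing the data, both spanned 1, Hspd1 at 1.05 (0.987 to 1.12) and Hspe1 at 1.05 (0.971 to 1.14). Hspd1 shares 44.8% of its words with other genes, most of all the processed pseudogene Hspd1-ps3. The wider list of mitochondrial folding genes includes Hspd1 and Hspe1 themselves, so it is not separate from them. In it 5 of 11 lay above 1, Hspd1 and Hspe1 among them, and 0 below. Of all measured genes 20.2% lay above 1 and 16.5% below, and of those at 10 CPM or more 28.0% and 19.7%. The median log2 ratio of that list was 0.17. Hspa9, the Hsp70 of mitochondria, had 3541 and 3829 counts, a ratio of 1.13 (1.08 to 1.19).

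Among the remaining inducible genes the J proteins went both ways. Dnaja1, a J protein that works with Hsp70 on many clients, went from 1816 control counts to 1953 with IL-36 gamma, at a ratio of 1.13 (1.06 to 1.204). Dnajb1, the Hsp40 that feeds clients to Hsp70, had 711 and 764 counts, a ratio of 1.13 (1.02 to 1.25); scaled by total counts its interval spanned 1 (0.978 to 1.203). Dnajb4, a close relative of Dnajb1, had 474 and 357 counts, the lowest ratio of the set at 0.791 (0.687 to 0.909). Bag3, which couples Hsp70 to small heat shock proteins and to autophagy, had 1061 and 906 counts, a ratio of 0.896 (0.819 to 0.980), and its 99% interval reached 1.01. Hsph1, the inducible Hsp110 that releases nucleotide from Hsp70, had 842 and 753 counts, a ratio of 0.939 (0.850 to 1.04). Scaled by total counts Hsph1 lay below 1, at 0.903 (0.817 to 0.997). Matches of 2 units stand in the promoter windows of Dnajb4, Bag3 and Hsph1 as well as in those of Hspe1, Hspd1 and Dnaja1, and the window of Dnajb1 was the 1 of 10 without any.

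**Figure D2:**
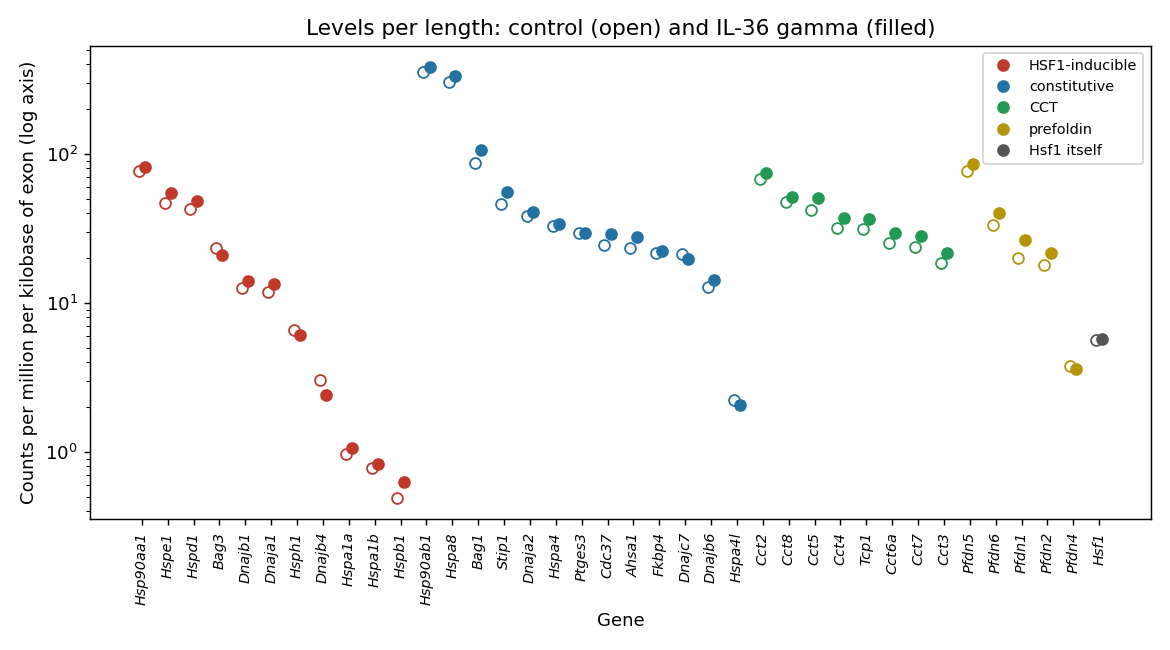
The level of each gene in CPM per kilobase of exon (y axis, log scale) is drawn for the control (open circles) and the IL-36 gamma library (filled circles), with genes on the x axis ordered by level within each group. The inducible group runs from Hsp90aa1 at 76.3 CPM per kilobase in the control down to Hspb1 at 0.491, while Hsp90ab1 and Hspa8 stand at 355 and 302; within a gene the circles lie close together.

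The highest ratios of the constitutive group belonged to cochaperones rather than to Hsp70 or Hsp90 genes. Of 13, 7 lay above 1 (Bag1, Stip1, Ahsa1, Cdc37, Dnajb6, Hspa8 and Hsp90ab1), 1 lay below (Dnajc7) and 5 spanned 1. That is 53.8% above and 7.69% below, beside 20.2% and 16.5% of all measured genes. The median log2 ratio was 0.09 (0.06 to 0.17 as medians of the members' bounds). Summed counts went from 62376 to 64810, a ratio of 1.09 (1.08 to 1.10), and Hsp90ab1 and Hspa8 supplied most of them. The grouping was a choice, and a broader inducible group also took in Stip1, Ahsa1, Fkbp4 and Hspa4l. With it, 7 inducible genes lay above 1 and 2 below, and 5 constitutive genes lay above and 1 below.

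Hspa8, the everyday Hsp70 of the cytosol (ENSMUSG00000015656, chr9:40800984-40810087), went from 23117 control counts to 24338 with IL-36 gamma, at a ratio of 1.11 (1.09 to 1.13). With the expression trend removed the ratio was 1.002 (0.984 to 1.02). Hspa8 was at percentile 99.1 of the levels per kilobase of all measured genes in the control, and Hsp90ab1 at percentile 99.2. Hspa4, a constitutive Hsp110, had 3214 and 3137 counts, a ratio of 1.02 (0.975 to 1.08). Hspa4l, its close relative, had 468 and 414 counts, a ratio of 0.929 (0.812 to 1.06). With Hsph1 this makes 3 Hsp110 genes, all with intervals spanning 1 and a summed ratio of 0.999 (0.958 to 1.04).

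The Hsp90 cochaperones divided by gene. Stip1, also called Hop, which bridges Hsp70 and Hsp90, went from 1722 control counts to 1960 with IL-36 gamma, at a ratio of 1.19 (1.12 to 1.28). Ahsa1, which speeds the ATPase of Hsp90, had 1807 and 2033 counts, a ratio of 1.18 (1.11 to 1.26). Cdc37, which loads kinases onto Hsp90, had 3580 and 4001 counts, a ratio of 1.17 (1.12 to 1.23). Ptges3, also called p23, which acts late in the cycle, had 1149 and 1103 counts, a ratio of 1.01 (0.927 to 1.10). Fkbp4, an immunophilin of the steroid receptor complex, had 1073 and 1047 counts, a ratio of 1.02 (0.940 to 1.12). Of the 5, Stip1, Ahsa1 and Cdc37 lay above 1 and the others spanned it; a difference between them was not tested. Over these 5 genes the summed ratio was 1.14 (1.11 to 1.17), beside 1.07 (1.05 to 1.09) for the Hsp90 genes themselves.

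Bag1 had the highest ratio of the constitutive group under TMM scaling, but not with the length trend removed, where it was 1.12 and Cdc37 stood at 1.24. This nucleotide exchange factor of Hsp70 (chr4:40936398-40948294) went from 2078 control counts to 2411 with IL-36 gamma, at a ratio of 1.22 (1.15 to 1.29), opposite in direction to Bag3. Dnajb6, a J protein that holds back aggregation, had 1368 and 1460 counts, a ratio of 1.12 (1.04 to 1.21). Scaled by total counts its ratio was 1.08 with a lower bound just under 1. Its promoter holds the 3-unit match printed above, although it stands in the constitutive group. Dnaja2, a J protein paired with Hspa8, had 2034 and 2052 counts, a ratio of 1.06 (0.995 to 1.13). Dnajc7, a J protein with repeats that bind both Hsp70 and Hsp90, had 1828 and 1612 counts, a ratio of 0.926 (0.865 to 0.9902), and its 99% interval reached 1.01. Over the 6 J protein genes of both groups 3 lay above 1 and 2 below. The shares of all measured genes were 20.2% above and 16.5% below, and of those at 10 CPM or more 28.0% and 19.7%.

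CCT was the most even of the 4 groups: 8 of 8 subunit genes lay above 1. The share above 1 was 20.2% of all measured genes and 28.0% of those at 10 CPM or more. Every CCT gene stood at 90.9 CPM or more in the control. Higher counts narrow the intervals, so these shares are not matched for depth. Ratios ran from 1.08 to 1.199, with a median log2 ratio of 0.23 (0.14 to 0.31 as medians of the members' bounds). Summed counts went from 19483 to 21362, a ratio of 1.15 (1.13 to 1.17). The subunits are used in equal number in the ring. Levels per kilobase in the control differed 3.68-fold between Cct2 (67.7 CPM) and Cct3 (18.4 CPM), and 3.47-fold with IL-36 gamma. Control counts of these genes were 3076 and 2082, and their annotated exons cover 2557 and 6370 bases. Levels between subunits are therefore uncertain. The ratios of the 8 genes differed only 1.11-fold between the highest and the lowest.

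By subunit, Cct5 (epsilon, chr15:31590800-31601804) stood highest, going from 2057 control counts to 2350 with IL-36 gamma, at a ratio of 1.199 (1.13 to 1.27). Cct7 (eta) had 2843 and 3207 counts, a ratio of 1.18 (1.13 to 1.25). Cct3 (gamma) had 2082 and 2324 counts, a ratio of 1.17 (1.10 to 1.24). These 3 intervals overlap each other and those of the next genes. Cct6a (zeta), which the annotation lists as a processed transcript, had 1616 and 1802 counts, a ratio of 1.17 (1.09 to 1.25). Tcp1 (alpha, the gene that gave the complex its first name) had 2806 and 3125 counts, a ratio of 1.17 (1.11 to 1.23). Cct4 (delta) had 2382 and 2633 counts, a ratio of 1.16 (1.10 to 1.23). Cct2 (beta) and Cct8 (theta) were the closest to 1. Cct2 had 3076 and 3233 counts, a ratio of 1.10 (1.05 to 1.16). Cct8 had 2621 and 2688 counts, a ratio of 1.08 (1.02 to 1.14).

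The call for Cct8 ended under several settings: its interval spanned 1 with total counts (0.980 to 1.09), with the expression trend removed (0.981 to 1.09) and with the length trend removed (0.974 to 1.09), and that of Cct2 spanned 1 with the length trend removed (0.988 to 1.09). The other 6 CCT genes lay above 1 under each of these. Exons of Tcp1, Cct6a, Cct7 and Cct8 overlap a gene on the opposite strand, whose reads cannot be told apart here, over 3.16 to 14.2% of their length. Cct2, Cct3, Cct4 and Cct5 have no such overlap.

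**Figure D3:**
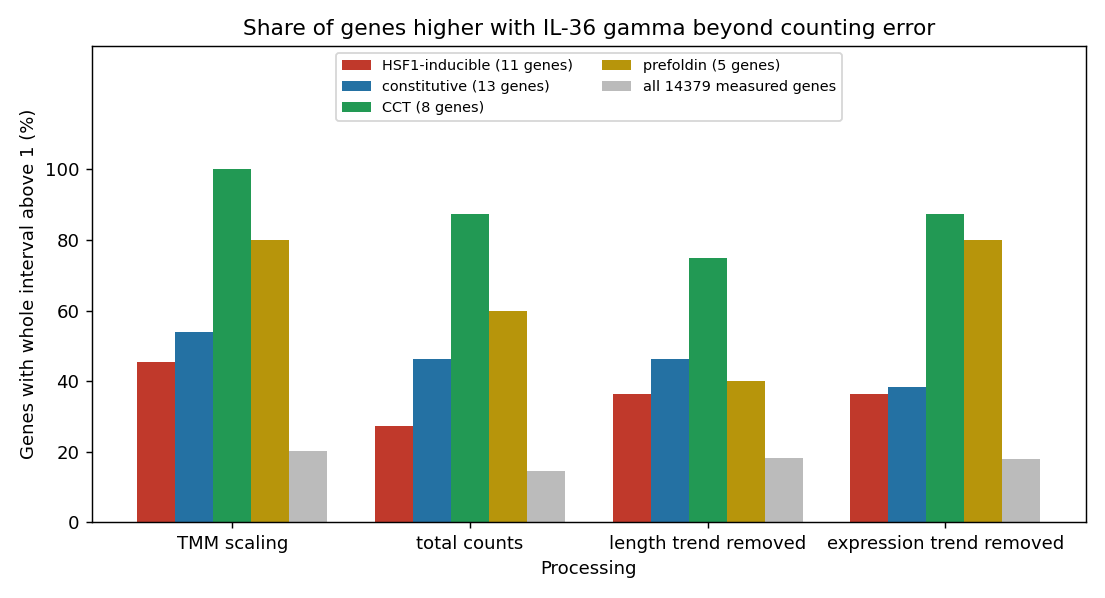
Bars give the percentage of genes in each group whose whole interval lies above 1 (y axis, from 0), for TMM scaling, scaling by total counts, and after removing the trend of the ratio on exon length or on expression (x axis); grey bars give all 14379 measured genes. CCT has 8, 7, 6 and 7 of 8 genes above 1 in that order, and the HSF1-inducible group 5, 3, 4 and 4 of 11.

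Prefoldin genes were mostly higher with IL-36 gamma, and most have a short exon length. Of 5, 4 lay above 1 and 0 below, beside 20.2% and 16.5% of all measured genes. The median log2 ratio was 0.26 (0.10 to 0.42 as medians of the members' bounds). Summed counts went from 3783 to 4167, a ratio of 1.16 (1.11 to 1.21). Pfdn1 went from 395 control counts to 493 with IL-36 gamma, at a ratio of 1.31 (1.15 to 1.499), the highest among members whose interval excluded 1. Pfdn6 had 700 and 812 counts, a ratio of 1.22 (1.10 to 1.35). Pfdn2 had 615 and 702 counts, a ratio of 1.198 (1.07 to 1.34). Pfdn5, also known as a binding partner of Myc, had 1904 and 2007 counts, a ratio of 1.11 (1.04 to 1.18). Pfdn4 had 169 and 153 counts, a ratio of 0.9502 (0.759 to 1.19), and was the only one of the 5 with a ratio under 1. Levels per kilobase in the control ran from 3.77 CPM (Pfdn4) to 76.9 CPM (Pfdn5), 20.4-fold apart. Annotated exons cover 2520 bases in Pfdn4 and 1394 in Pfdn5, which adds to that distance.

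Exon length moved with the ratios of all genes. In 10 length bins of all measured genes the median log2 ratio was 0.13 in the second, between 1132 and 1877 bases, and -0.16 in the longest. Prefoldin genes lie in the first 3 bins, and CCT genes in the fourth to eighth, where the bin medians run from 0.08 to -0.05. Exon length here counts every annotated exon of a gene, and the length of the transcripts present was not measured. With this trend removed, 2 of 5 prefoldin genes remained above 1 (Pfdn1 and Pfdn6), their summed ratio was 1.07 in place of 1.16, and 6 of 8 CCT genes remained above 1. With the trend taken from genes at 10 CPM or more, 1 prefoldin gene (Pfdn1) and again 6 CCT genes remained. The part of length in these ratios was not tested.

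**Figure D4:**
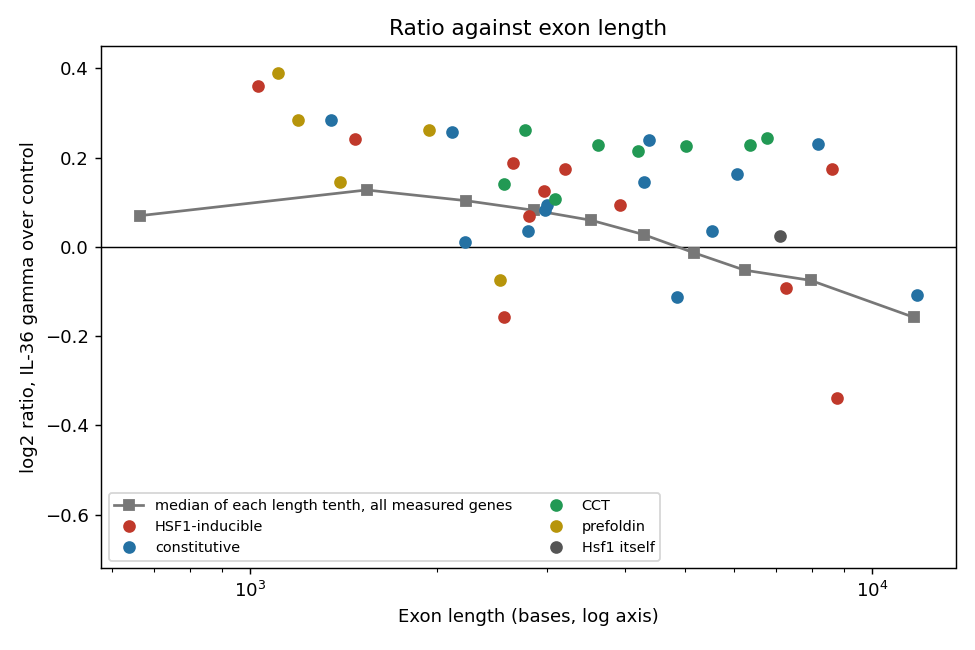
The log2 ratio of each of the 38 genes (y axis) is drawn against its exon length in bases (x axis, log scale), with grey squares for the median of each of 10 length bins of all measured genes at the median length of the bin. Grey squares go from 0.13 in the second bin to -0.16 in the last; CCT genes lie above the grey line along its whole middle range, and Dnajb4 (-0.34) and Bag3 (-0.16) lie below it.

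Neighbouring parts of the folding machinery were read from lists of their own. Tubulin and actin proteins are clients of CCT, and their genes were listed with tubulin folding cofactors. Of these 13 measured genes, 8 lay above 1 and 3 below, with a median log2 ratio of 0.21. Those below were Tbce (0.833), Tubb6 (0.905) and Actg1 (0.943), while Actb (1.07) lay above. The shares of all measured genes were 20.2% above 1 and 16.5% below. Tuba1b, an alpha tubulin, went from 3606 control counts to 4734 with IL-36 gamma, at a ratio of 1.38 (1.32 to 1.44). Tubb5, a beta tubulin, had 10850 and 13718 counts, a ratio of 1.33 (1.29 to 1.36). These 2 were the only genes of that list past 1.2-fold, and as members of families of near-identical copies their counts are uncertain. Of 7 measured partners of CCT and prefoldin, 2 lay above 1 and 0 below, with a median of 0.12; 2 of 7 is near the 28.0% of genes at 10 CPM or more. Vbp1, which encodes the remaining prefoldin subunit and is named here after its value was seen, had 378 and 411 counts, a ratio of 1.14 (0.9901 to 1.32) that spanned 1. Pdrg1, a subunit of a prefoldin-like complex, had a ratio of 1.23 (1.12 to 1.36), and Txndc9, a CCT regulator, 1.01 (0.917 to 1.12).

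Of 13 measured Hsp90 partners, 9 lay above 1 and 0 below, beside 20.2% and 16.5% of all measured genes. Their median log2 ratio was 0.16. Fkbp8, an immunophilin anchored in the mitochondrial membrane, went from 4869 control counts to 5447 with IL-36 gamma, at a ratio of 1.17 (1.13 to 1.22). Hsp90b1, the Hsp90 of the endoplasmic reticulum, had 4237 and 4290 counts, a ratio of 1.06 (1.02 to 1.11). Of the 16 measured partners of Hsp70 and J proteins, 5 lay above 1 and 1 below, with a median of 0.09. That is 31.25% above 1, near the 28.0% of genes at 10 CPM or more, and 6.25% below, beside 19.7%. Bag6, which escorts membrane proteins, had 5097 and 4865 counts, a ratio of 1.002 (0.963 to 1.04), and Dnajc5, the J protein of secretory vesicles, had 2723 and 2270, a ratio of 0.875 (0.827 to 0.925).

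Genes outside the listed set were shifted as well, beside 20.2% of all measured genes above 1 and 16.5% below. Of 16 genes for folding in the endoplasmic reticulum, many of them chaperones themselves, 12 lay above 1 and 0 below, with a median of 0.14. Pdia6, a disulfide isomerase, went from 2980 control counts to 3584 with IL-36 gamma, at a ratio of 1.26 (1.202 to 1.33). Of 31 proteasome subunit genes, 25 lay above 1 and 1 below, with a median of 0.20. Psmb5, a catalytic subunit, had 880 and 1166 counts, a ratio of 1.39 (1.27 to 1.52). CCT, at a median of 0.23, and the proteasome genes, at 0.20, stood side by side, and a difference between them was not tested.

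Markers of other cells moved between the libraries too. Neutrophil markers summed to 150 CPM in the untreated library and 242 CPM after IL-36 gamma, and 6 of 8 measured markers lay above 1; of the full 9, Ly6g had 8 and 9 counts and none was at 0. Proliferation genes summed to 828 and 766 CPM, with 0 of 8 above 1 and 3 below. T cell markers summed to 13.2 and 7.56 CPM, nearly all of it Cd4, with 3 of 6 at 0 in both libraries. B cell markers summed to 22.8 and 29.3 CPM, nearly all of it Cd79b. Fibroblast markers summed to 12.04 and 6.91 CPM with 2 of 6 at 0 in both libraries, and erythroid markers to 0.281 and 0.0591 CPM with 3 of 5 at 0. The part of these cells in the chaperone ratios was not tested.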

How the data were processed

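Messenger RNA of 1 control and 1 IL-36 gamma library was deposited by the authors as raw read counts per Ensembl gene, not normalized. The submitters' processing notes name build mm10, the aligner STAR 2.5.0a, the counter HTSeq, and Trim Galore 0.6.1 and FastQC 0.11.8; for the strand setting and annotation release the sources used here give nothing. The members, groups and lists were chosen with earlier results of these data known.

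Of the 54446 gene IDs, 54409 were matched without version number in GENCODE M21. The 5 rows naming no gene stayed out of library sizes; reads in no gene made up 47.2% (control) and 46.3% (IL-36 gamma) of all rows, reads ambiguous between genes 1.79% and 1.84%, and reads with several alignments 6.65% and 6.92%. Counts were scaled with TMM factors of edgeR 4.0.16 (1.02 and 0.981) in R 4.3.3. With 1 library per group no test was run. Each ratio has an exact 95% Clopper-Pearson interval of the share of the pair of counts. PCR copies of a molecule are not independent and variation between cultures was not measured, so intervals cover counting error only. A floor of 3 counts is 0.169 CPM (control) or 0.177 CPM (IL-36 gamma). A gene was measured where its mean count was 10 or more. Group bounds are medians of the members' bounds. Sharing of sequence was counted as the share of 50-base words of the longest transcript found in transcripts of other genes; 10 members exceed 25%, and 13 have exons overlapped on the opposite strand.

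Every member is named. Of each other list, genes past 1.2-fold are named, up to 4, or the 2 most abundant where none passed. Of the neutrophil, T cell, B cell, fibroblast and proliferation lists summed levels are given in place of single genes. Lyz2, Cd4, Cd79b, Ly6g, Vbp1, Hsf4, Actb, Actg1, Tubb6 and Tbce were named after their values were seen. Promoters are from RefSeq (GRCm38.p6). The alternatives were other scalings (total counts, DESeq2 1.42.0 size factors, upper quartile, TMM over protein-coding genes), other filters, folds and interval levels, lowess trends (span 0.3, prior count 2) on length, GC content or expression removed, overlapped genes left out, means, and other groupings. Removing the length trend of genes at 10 CPM or more, and leaving out members that share sequence, were chosen after seeing the data. Scripts ran in Python 3.11.15 (scipy 1.17.1, statsmodels 0.14.6, pandas 2.3.3, numpy 2.4.6, matplotlib 3.10.9).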

Additional observations from a re-analysis of the deposited data

How the results depend on the processing

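No paired analysis was possible because each group had 1 library, and no library could be left out. DESeq2 size factors, upper quartile scaling, the GC trend, the filters, means, the broader inducible group and the folds of 1.5 and 2 moved no group count by over 1.5 times and no group value beyond its interval. The summed ratio of all members was 1.06 with total counts, 1.09 with TMM over protein-coding genes, 1.08 with the length trend removed, 1.04 with the expression trend removed and 1.06 with the length trend of abundant genes removed; that of the constitutive genes was 1.05, 1.08, 1.07, 1.01 and 1.05. The summed CCT ratio was 1.11 with total counts, 1.11 without the expression trend and 1.11 without the length trend of abundant genes. For the HSF1-inducible genes it was 1.03 with total counts, 1.03 without the expression trend, 1.02 with overlapped genes left out, 1.04 without Hspd1 and Hspe1, 1.03 without the length trend of abundant genes and 1.01 without members that share sequence. For prefoldin it was 1.07 without the length trend, 1.03 without that of abundant genes and 1.21 without members that share sequence.

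HSF1-inducible genes above 1 numbered 3 with total counts, 2 with overlapped genes left out, 3 without Hspd1 and Hspe1, 1 without the length trend of abundant genes and 2 without members that share sequence, where their median log2 ratio was -0.09. Over all genes the share above 1 was 14.4% with total counts, 18.3% without the length trend, 17.8% without the expression trend, 21.4% with overlapped genes left out and 15.1% without the length trend of abundant genes, so 1 of 11 inducible genes there is under it. The prefoldin median was above that of CCT under TMM, but under it without the length trend (0.15 and 0.19), that of abundant genes (0.10 and 0.16) or the GC trend (0.23 and 0.24). Prefoldin genes above 1 numbered 2, 2, 1 and 2 without the length trend, the overlapped genes, the length trend of abundant genes and the members that share sequence. Leaving out overlapped genes left 14 members above 1, 4 of them in CCT, and 0 constitutive genes below; removing the length trend of abundant genes left 14. With 99% intervals 1 member lay below 1, an HSF1-inducible gene, and 0 constitutive genes; without the expression trend, or the length trend of abundant genes, 2 constitutive genes did. The constitutive median log2 ratio was 0.036 with total counts, 0.014 without the expression trend and 0.040 without the length trend of abundant genes. Hsp90ab1 reversed to 0.971 without the expression trend. Without the length trend of abundant genes the ratios of Hsp90ab1 (0.996) and Pfdn5 (0.981) were under 1 with intervals that spanned 1. Where genes were left out, the counts are over fewer genes. The cause of these changes was not tested. Over all genes, higher calls were 55.0% of calls with TMM and 39.2% with total counts, which moved the median log2 ratio of all genes from 0.01 to -0.05. Depth limits Hspa1a, Hspa1b, Hspb1 and Pfdn4 most.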
